A study of Mus musculus with 12 samples.

Results

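Translation initiation and elongation factors are the cytoplasmic proteins that start protein synthesis on the ribosome and carry it along the mRNA. The genes were taken by name, as all rows of the deposited table whose symbol began with Eif1 to Eif6 or with Eef1 or Eef2. That pattern matched 67 rows, from which 4 Eif2c rows (Argonaute genes), 4 Eif2ak rows (kinases that act on eIF2) and Eef1e1 (a protein of the tRNA synthetase complex) were set aside. The remaining 58 genes, of 23420 in the table, are the members described here. Expression was measured by bulk RNA sequencing in monocytic myeloid-derived suppressor cells (M-MDSCs), immature myeloid cells that can become osteoclasts. They came from the bone marrow of untreated male C57BL/6JNIA mice and were taken by flow sorting for CD11b+, Ly6G- and Ly6C hi. Aged mice were 24 months old (n = 6) and young mice 6 months old (n = 6), with 1 library for each mouse.

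Initiation begins when eIF2 brings the initiator tRNA to the small ribosomal subunit, where eIF1, eIF1A, eIF3 and eIF5 assemble, while eIF4F (the cap-binding eIF4E, the scaffold eIF4G and the helicase eIF4A) brings the mRNA. During elongation eEF1A delivers each aminoacyl-tRNA, the eEF1B subunits reload eEF1A with GTP, eEF2 moves the ribosome by a codon and eIF5A helps it through stretches that are hard to translate, such as runs of proline. Many mRNAs of elongation factors and some of eIF3 carry a terminal oligopyrimidine (TOP) start, the feature by which the kinase complex mTORC1 controls their translation.

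Library totals were 8737941 to 16300374 counts in aged and 4613239 to 9079237 in young mice. Of the genes that define the sort, Itgam (CD11b) stood at 2660 to 3481 CPM (counts scaled to library size) in aged and 3269 to 3543 CPM in young mice, and Ly6c2 at 605 to 799 and 367 to 595 CPM. Csf1r, the receptor for M-CSF, stood at 93.1 to 205 and 111 to 150 CPM. Granule genes known from maturing neutrophils were abundant in every library despite the Ly6G- gate, with mean levels per length of 7773 CPM per kb for Ltf and 30393 CPM per kb for Ngp against 35.6 CPM per kb for Csf1r and 9.53 CPM per kb for Ccr2. The name M-MDSC is used here as the labels give it. Of 8 monocyte markers tested, Ly6c2 was higher and Itgam was lower in aged mice and the other 6 were not called, and neither call held once the dependence of the fold changes on gene length, described below, was removed by an offset. The summed level of 8 neutrophil markers was 119905 to 142801 CPM in aged and 76478 to 120094 CPM in young mice, and 5 of the 8 were higher in aged mice, none of them with that offset. All 7 resident macrophage markers were higher in aged mice (sum 55.9 to 1017 CPM, against 45.3 to 63.4 CPM), most of all in aged mice 1 and 2. Of 15 cycling cell markers 3 (20%, against 23.0% of all genes) were lower in aged mice, 1 of them with the offset (sum 528 to 1095 CPM, against 885 to 1560 CPM). Mki67 (mean 99.0 CPM in aged and 399 CPM in young mice) and Top2a (208 and 319 CPM) made up most of the difference in the sum, and young mice 5 and 6 had the highest sums. Of the remaining lists, 3 of 3 tested promyelocyte markers were higher, 2 of them with the offset (sum 9.06 to 16.5 CPM, against 3.13 to 8.46 CPM), and the sums for B cells, plasma cells and T and NK cells did not exceed 12.5 CPM in any mouse. Dendritic cell sums were 0.739 to 2.10 CPM in aged and 3.12 to 7.74 CPM in young mice, with Clec9a, the one gene of that list tested, lower (log2 fold change -2.45, edgeR adjusted p = 2.89e-05). Erythroid sums were 0.535 to 5.24 CPM in aged and 0 to 0.355 CPM in young mice, with Hba-a1 and Hba-a2 listed at 0. The part of these markers in the results that follow was not tested. In bulk RNA, fewer cells of a type and less RNA per cell cannot be told apart.

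Of the 58 members, 52 had enough counts to be tested, and 32 of them (61.5%) differed between the ages at an adjusted p under 0.05 by edgeR's quasi-likelihood test, hereafter called higher or lower. Among all 9742 genes tested, 45.4% were called. In aged M-MDSCs 25 members (48.1%) were higher, where 22.4% of all genes were, and 7 members (13.5%) were lower, where 23.0% of all genes were. The median log2 fold change, aged against young, was 0.22 for the members and 0.0062 for all genes. Most differences were below 2-fold, with a range of log2 fold changes from -0.91 for Eif4a2 to 1.01 for Eif3i. The values of the 6 aged and the 6 young mice did not overlap in 24 members, a separation found in 21.8% of all genes. Of these members 20 were higher and 4 were lower in aged mice, where 9.68% and 12.1% of all genes separated in that direction. Elongation factors, most eIF3 subunits and the eIF2 pathway held most of the higher members. The 7 lower members were Eif4a2, Eif4g1, Eif4g3, Eif4ebp3, Eif4enif1, Eif3a and Eif5b.

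**Figure D1:**
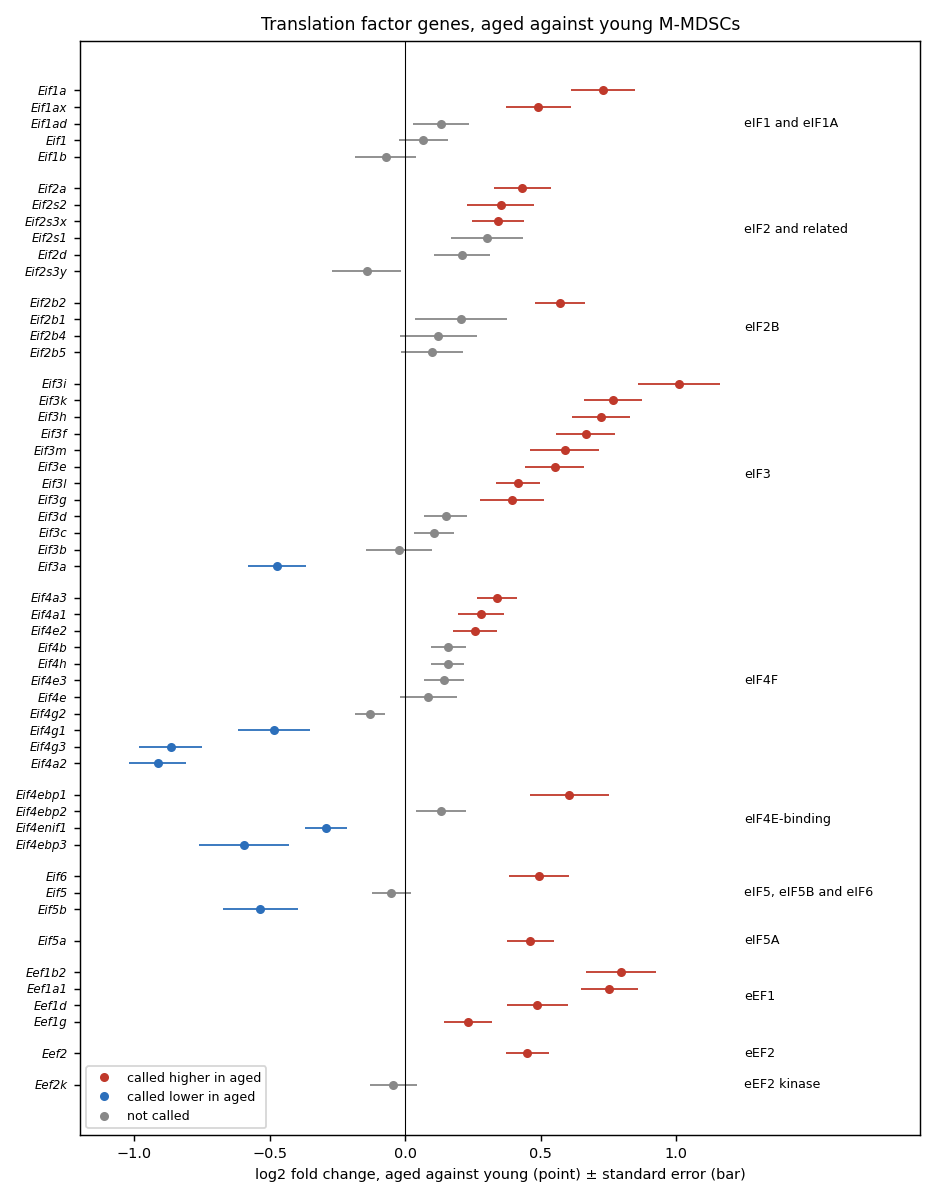
Log2 fold change of each tested member, aged against young (point, horizontal axis), with its standard error (bar), grouped by name into a complex or step. The 25 members called higher are red, the 7 called lower are blue and the 20 not called are grey. All 4 tested eEF1 genes and 8 of 12 tested eIF3 genes are red, where 22.4% of all genes were called higher.

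Length differed between the members called higher and those called lower. The median over exons was 1573 bases (range 773 to 4928) for the former and 5176 bases (1151 to 7797) for the latter, and Spearman's rho of the log2 fold change with length was -0.53 across the 52 tested members and -0.48 across all genes tested (genes are not independent replicates, so no p is given). With each library's dependence on length removed by an offset, 21 members were higher and 5 were lower, against 19.3% and 16% of all genes, and the members' median log2 fold change was 0.14. Of the 25 higher members 18 kept their call under the offset, as did 4 of the 7 lower ones (Eif4a2, Eif4g3, Eif3a and Eif4ebp3). Of the members not called, Eef2k, Eif4b and Eif4g2 were called higher and Eif1b lower under the offset.

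**Figure D2:**
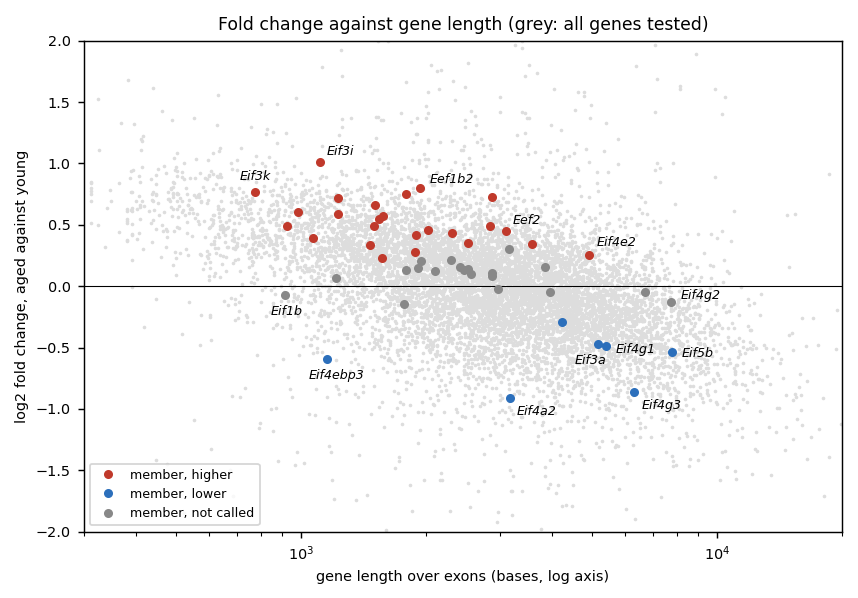
Log2 fold change, aged against young (vertical axis), against gene length over exons in bases (horizontal log axis), with members in red (higher), blue (lower) and dark grey (not called) and all genes tested in light grey, of which 81 lie outside the axes. Fold changes fall with length in the members (rho = -0.53) and in all genes (rho = -0.48), and Eif4a2 and Eif4ebp3 lie low for their length.

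The elongation factors were higher in aged M-MDSCs in every tested case, 4 of 4 for eEF1 and 1 of 1 for eEF2. Among all genes tested, 22.4% were higher. Eef1a1, at chr9:78478454-78481724 on the minus strand of mm10, encodes the form of eEF1A used in most cell types. Its level was 729, 822 and 881 CPM (lowest, median and highest) in aged mice and 359, 503 and 580 CPM in young mice. Every aged mouse stood above every young mouse, and the log2 fold change was 0.75 ± 0.11 (SE, n = 6 and 6, edgeR adjusted p = 0.000114). Eef1b2, a subunit of the exchange factor that reloads eEF1A with GTP, measured 35, 42.3 and 46.3 CPM in aged and 16.9, 25.6 and 30.7 CPM in young mice. The ages did not overlap here either, and Eef1b2 had the largest rise of its class, a log2 fold change of 0.80 ± 0.13 (adjusted p = 0.0003). The other two exchange factor subunits rose less. The log2 fold change was 0.49 ± 0.11 for Eef1d, without overlap between the ages, and 0.23 ± 0.09 for Eef1g (adjusted p = 0.0462), whose values overlapped and whose call was lost under the length offset (0.05, adjusted p = 0.668).

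Eef2, the GTPase that translocates the ribosome, was among the most abundant members. Its level was 642, 702 and 734 CPM in aged and 408, 537 and 557 CPM in young mice. The 2 ranges were separate, with a log2 fold change of 0.45 ± 0.08 (edgeR adjusted p = 0.000599). Eif5a, which carries the amino acid hypusine and acts in elongation, measured 345, 381 and 412 CPM in aged and 225, 288 and 308 CPM in young mice. Again all aged values exceeded all young ones, and the log2 fold change was 0.46 ± 0.09 (adjusted p = 0.000797). Eef2k, the kinase that phosphorylates eEF2 and thereby slows elongation, was not called (28.6 to 39.4 CPM in aged, 32 to 38.7 CPM in young mice, log2 fold change -0.04 ± 0.09, adjusted p = 0.703), while under the length offset its log2 fold change was 0.28 (adjusted p = 0.0172). Eef1a2, the eEF1A of muscle and neurons, had 1 count in all 12 libraries together and Eif5a2 had 55, so neither was tested.

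**Figure D3:**
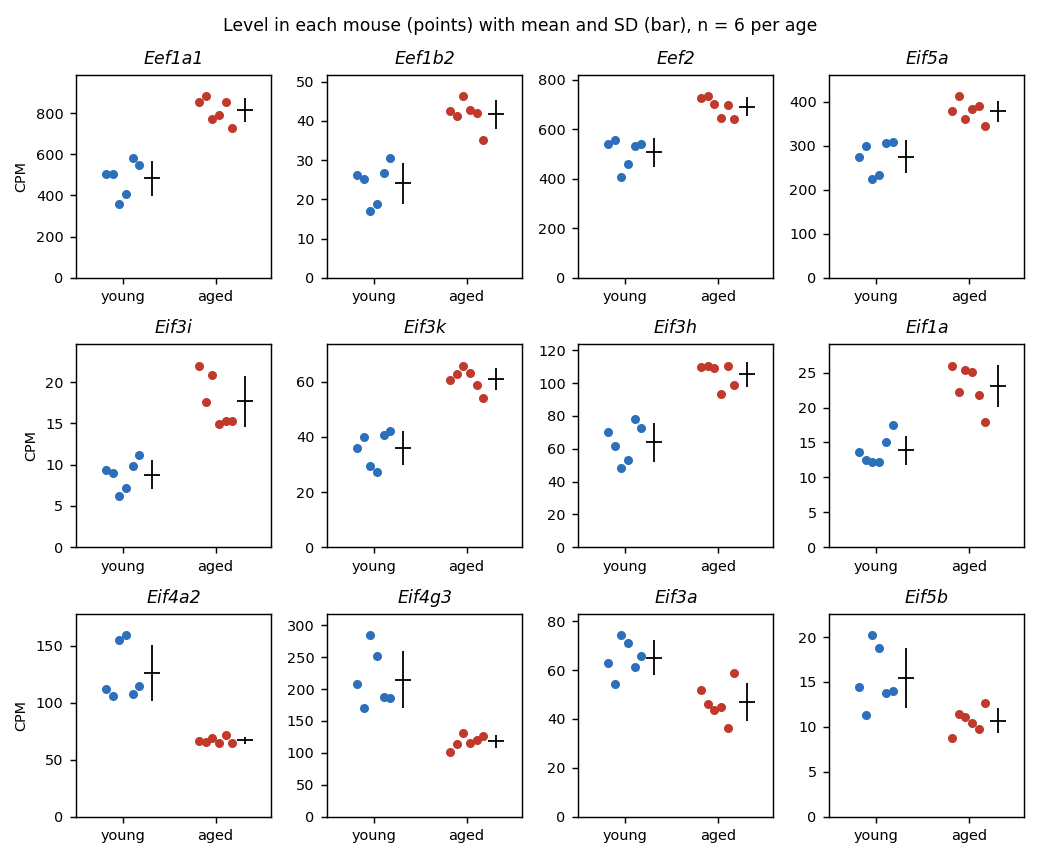
CPM (vertical axes, from 0) of 12 members in each young (blue) and aged (red) mouse, with the mean and SD of the 6 mice of each age as a bar beside the points. The aged mice lie above all young mice in the upper 2 rows, below all young mice for Eif4a2 and Eif4g3, and overlap them for Eif3a and Eif5b.

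The largest initiation factor is eIF3, the platform on which the other factors assemble. Of its 12 tested subunits 8 were higher (66.7%, against 22.4% of all genes) and 1 was lower (8.33%, against 23.0%). Eif3i had the largest rise of all members. Its level was 14.9, 16.5 and 22.0 CPM in aged and 6.18, 9.19 and 11.1 CPM in young mice. No aged mouse fell below 14.9 CPM and no young mouse exceeded 11.1 CPM, and the log2 fold change was 1.01 ± 0.15 (edgeR adjusted p = 0.000171), a 2.01-fold difference. Eif3k, one of the smallest subunits, measured 54.1, 61.9 and 65.8 CPM in aged and 27.4, 38.1 and 42.0 CPM in young mice. It had the smallest p-value of the complex (log2 fold change 0.77 ± 0.11, adjusted p = 9.42e-05) and no overlap, but it is also among the shortest members, and the length offset reduced its log2 fold change to 0.33 (adjusted p = 0.00112). Eif3f, the eIF3 subunit of highest level per length, measured 119, 140 and 159 CPM in aged and 65.8, 93.0 and 102 CPM in young mice. Its ages were separate as well, with a log2 fold change of 0.66 ± 0.11 (adjusted p = 0.000296).

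The other subunits that rose were Eif3h (0.72), Eif3m (0.59), Eif3e (0.55), Eif3l (0.42) and Eif3g (0.39), given as log2 fold changes. In each of these all aged mice stood above all young mice, as they did in 9.68% of all genes. The call for Eif3g was lost under the length offset (0.08, adjusted p = 0.591). Eif3a, the scaffold subunit around which eIF3 is built, went the other way. Its level was 36.3, 45.6 and 58.7 CPM in aged and 54.4, 64.4 and 74.2 CPM in young mice. Only the highest aged mouse reached the range of the young mice, and the log2 fold change was -0.47 ± 0.11 (edgeR adjusted p = 0.00268), or -0.26 (adjusted p = 0.0467) with the length offset. The 3 subunits that were not called were Eif3b (-0.02 ± 0.12), Eif3c (0.11 ± 0.07) and Eif3d (0.15 ± 0.08), all overlapping between the ages. Of the 8 subunits that form the structural core of the complex, Eif3e, Eif3f, Eif3h, Eif3k, Eif3l and Eif3m were thus higher, Eif3c was not called and Eif3a was lower. Eif3j1 and Eif3j2, names of the loosely bound subunit, are listed at 0 in every library. The table places both rows on the same strand and stretch of chromosome 2, where all 2367 exon bases of Eif3j1 lie within exons of Eif3j2, and the counting command recorded with the table did not ask for fragments that fall on 2 genes to be counted. These zeros therefore set no limit on the level of the subunit. No other member shared an exon base with another row on its strand.

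Among the factors that place the initiator tRNA, every called gene was higher, while Eif1b was called lower under the length offset alone. Of the 5 tested eIF1 and eIF1A genes 2 were higher (40.0%, against 22.4% of all genes). Eif1a, which encodes a form of eIF1A, measured 18, 23.7 and 26 CPM in aged and 12.2, 13.1 and 17.5 CPM in young mice. The lowest aged mouse stood just above the highest young mouse, and the log2 fold change was 0.73 ± 0.12 (edgeR adjusted p = 0.000293). Its X-linked relative Eif1ax also rose (0.49 ± 0.12, adjusted p = 0.00418), a call lost under the length offset (0.13, adjusted p = 0.227). Eif1, which guards the choice of the start codon and had the highest level of this class per length, was not called (164 to 235 CPM in aged, 180 to 226 CPM in young mice, log2 fold change 0.07 ± 0.09). Eif1ad was not called either (0.13 ± 0.10). Eif1b (-0.07 ± 0.11) had a log2 fold change of -0.45 with the offset (adjusted p = 0.00472).

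Of the 3 subunits of eIF2, the beta subunit gene Eif2s2 (log2 fold change 0.35 ± 0.12) and the X-linked gamma subunit gene Eif2s3x (0.34 ± 0.10) were higher, though Eif2s2 missed the threshold under the length offset (0.32, adjusted p = 0.051). The alpha subunit gene Eif2s1, whose product is the target of the stress kinases, missed the threshold (0.30 ± 0.13, edgeR adjusted p = 0.0766). Eif2s3y, the Y-linked gamma subunit gene, was not called (44.4 to 62.7 CPM in aged, 50.8 to 78.1 CPM in young mice, log2 fold change -0.14 ± 0.13, adjusted p = 0.375), and its 2 highest values were those of young mice 5 and 6. Eif2a, a separate initiator tRNA-binding protein, had the largest rise here. Its level was 15.5, 18.7 and 21.7 CPM in aged and 12.4, 13.5 and 15.4 CPM in young mice. The ages were separated by a narrow gap, and the log2 fold change was 0.43 ± 0.10 (adjusted p = 0.00389). Eif2d, which also binds tRNA to the small subunit, was not called (0.21 ± 0.10, adjusted p = 0.106). In eIF2B, the exchange factor of eIF2, the beta subunit gene Eif2b2 was higher (26.4, 30.2 and 32.2 CPM in aged and 16.8, 20.9 and 22.0 CPM in young mice). Its log2 fold change was 0.57 ± 0.09 (adjusted p = 0.000283) without overlap. Eif2b1 (0.20 ± 0.17), Eif2b4 (0.12 ± 0.14) and Eif2b5 (0.10 ± 0.12) were not called, and Eif2b3, with 75 counts over all libraries, was not tested.

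Of 11 tested genes grouped by name with the cap-binding complex eIF4F and its helpers, 3 were higher and 3 were lower. This was 27.3% in each direction and close to the shares of all genes (22.4% and 23.0%). The group includes Eif4a3, Eif4e2 and Eif4g2, whose different roles are given below. The largest fall of all members was that of Eif4a2 (chr16:23107479-23114132, plus strand), which encodes a form of the helicase eIF4A. It measured 64.2, 65.9 and 71.9 CPM in aged and 106, 113 and 159 CPM in young mice. The highest aged mouse stood well below the lowest young mouse, and the log2 fold change was -0.91 ± 0.10 (edgeR adjusted p = 2.52e-05), with -0.88 (adjusted p = 7.39e-05) under the length offset. Eif4g3, a paralog of the scaffold eIF4G1, measured 101, 117 and 132 CPM in aged and 171, 198 and 284 CPM in young mice. The ages were separate here too, with a log2 fold change of -0.87 ± 0.12 (adjusted p = 7.89e-05) and, after the offset, of -0.56 (adjusted p = 0.000781). Eif4g1, the principal scaffold, was lower with overlap (67.5, 87.1 and 120 CPM in aged and 99.2, 118 and 156 CPM in young mice). Its log2 fold change was -0.49 ± 0.13 (adjusted p = 0.00829), and that call was lost under the length offset (-0.26, adjusted p = 0.0997).

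Other genes grouped by name with eIF4F moved little. Eif4a3, a helicase of the exon junction complex that shares the eIF4A name, rose from 31.0, 33.4 and 37.5 CPM in young to 40.4, 43.0 and 48.8 CPM in aged mice. The ages did not overlap, with a log2 fold change of 0.34 ± 0.07 (edgeR adjusted p = 0.00212), but the length offset left 0.13 (adjusted p = 0.115). Eif4a1 was also higher with overlap (0.28 ± 0.08, adjusted p = 0.0138), a call lost under the offset (0.16, adjusted p = 0.153). Eif4e2, a cap-binding protein linked to repression, was higher with overlap (0.26 ± 0.08, adjusted p = 0.0182) and kept its call under the offset (0.45, adjusted p = 0.00161). Eif4e itself, the cap-binding subunit, was not called (16.9 to 20.9 CPM in aged, 14.1 to 21.7 CPM in young mice, log2 fold change 0.09 ± 0.10). The helicase cofactors Eif4b (0.16 ± 0.06, adjusted p = 0.0567) and Eif4h (0.16 ± 0.06, adjusted p = 0.0506) lay just above the threshold. Eif4b was called higher in 6 of 14 alternatives, among them the length offset (0.26, adjusted p = 0.00544), and Eif4h in 4 of 14. Eif4e3 (0.14 ± 0.07) was not called, but was higher in 3 of 14. Eif4g2, a scaffold that does not bind eIF4E, was the most abundant gene of this group. It measured 678, 695 and 749 CPM in aged and 744, 753 and 826 CPM in young mice. Only 1 aged mouse reached the young range, and its log2 fold change was -0.13 ± 0.06 (adjusted p = 0.0708), which turned to 0.27 (adjusted p = 0.00312) under the length offset. It was called lower by DESeq2 (adjusted p = 0.0109) and without TMM factors (adjusted p = 0.00953), so its direction depends on the processing. Eif4e1b, known from oocytes, had no count.

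Proteins that bind eIF4E and keep it from eIF4G also moved in both directions. Eif4ebp1, the repressor that mTORC1 inactivates by phosphorylation, measured 64.5, 83.1 and 99.99 CPM in aged and 37.4, 57.6 and 64.4 CPM in young mice. The ages touched without overlapping, and the log2 fold change was 0.61 ± 0.15 (edgeR adjusted p = 0.00383), or 0.27 (adjusted p = 0.0727) with the length offset. Eif4ebp2, the most abundant of these per length, was not called (0.13 ± 0.09). Eif4ebp3 measured 3.38, 4.07 and 4.99 CPM in aged and 5.09, 5.52 and 7.94 CPM in young mice. It was low in every aged mouse, with a log2 fold change of -0.60 ± 0.17 (adjusted p = 0.00955) that the offset deepened to -0.91. Its 51-base words are shared for 65.4% with another gene of the GENCODE M21 annotation, so its reads and that gene's may not be told apart. Eif4enif1, which shuttles eIF4E into the nucleus and represses translation, fell by 0.29 on the log2 scale (SE 0.08, adjusted p = 0.00729) without overlap, a call lost with the offset (-0.16, adjusted p = 0.104).

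At subunit joining, the 3 tested genes differed from one another. Eif6, which keeps free 60S subunits from joining too early, rose. It measured 42.1, 45.1 and 47.2 CPM in aged and 23.7, 33.2 and 38.5 CPM in young mice. Its values were tightly grouped in aged mice and all above the young ones, with a log2 fold change of 0.49 ± 0.11 (edgeR adjusted p = 0.00233). Eif5, the GTPase activator of eIF2 and the most abundant of the 3 per length, was not called (200.2 to 238 CPM in aged, 199.98 to 268 CPM in young mice, log2 fold change -0.05 ± 0.07). Eif5b, the GTPase that joins the subunits, measured 8.81, 10.8 and 12.7 CPM in aged and 11.4, 14.2 and 20.2 CPM in young mice. The ranges overlapped slightly, the log2 fold change was -0.54 ± 0.14 (adjusted p = 0.00614), and the length offset left -0.13 (adjusted p = 0.408). At 7797 bases it is the longest of the tested members.

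The young mice were not uniform. Young mice 5 and 6, which had the highest cycling marker sums (1560 and 1532 CPM) and the lowest neutrophil marker sums (76478 and 77131 CPM) of the young group, gave the 2 young values farthest from the aged mice in 23 of the 32 called members, including all 7 that were lower. Without both of them, a comparison added after the data were seen, 20 members were higher and 5 were lower, where 14.1% and 17.9% of all genes were, and 25 of the 32 calls remained. Eif4a2 then had a log2 fold change of -0.74 (edgeR adjusted p = 4.96e-06), Eif4g3 of -0.69 (adjusted p = 4.89e-05), Eef1a1 of 0.59 (adjusted p = 8.38e-05) and Eif3i of 0.81 (adjusted p = 0.00088). The calls for Eif4g1 (-0.34, adjusted p = 0.0582) and Eif4ebp3 (-0.39, adjusted p = 0.0934) were lost, as were those for the higher members Eef1g (0.14, adjusted p = 0.289), Eif2s2 (0.28, adjusted p = 0.16), Eif2s3x (0.28, adjusted p = 0.0649), Eif3g (0.28, adjusted p = 0.102) and Eif4e2 (0.15, adjusted p = 0.136). Without aged mice 1 and 2, the highest in macrophage markers, 29 of the 32 calls remained, and those for Eef1g (0.18, adjusted p = 0.166), Eif3g (0.36, adjusted p = 0.0512) and Eif4a1 (0.21, adjusted p = 0.0795) were lost.

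Counts from all members together took a larger part of the aged libraries. The summed level of the 58 genes was 5148 to 5512 CPM in aged and 4343 to 4878 CPM in young mice, and the ages did not overlap. As a share of all counts this was 0.484% to 0.552% and 0.466% to 0.50%, with overlap. Eef1a1, Eef2 and Eif4g2 together held 40.1% to 42.0% of the member counts in aged and 34.9% to 39.0% in young mice. Per length the order of the members was led by Eef1a1, with a mean over both ages of 362 CPM per kb, followed by Eef2 (193 CPM per kb), Eif1 (172 CPM per kb) and Eif5a (162 CPM per kb). Eif5b was the lowest of the tested members at 1.67 CPM per kb. Part of the sequence of some members recurs in other genes of the GENCODE M21 annotation, 59.9% of the 51-base words for Eef1a1 and 64.0% for Eef1g, and fragments from such stretches may be missing from their counts.

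**Figure D4:**
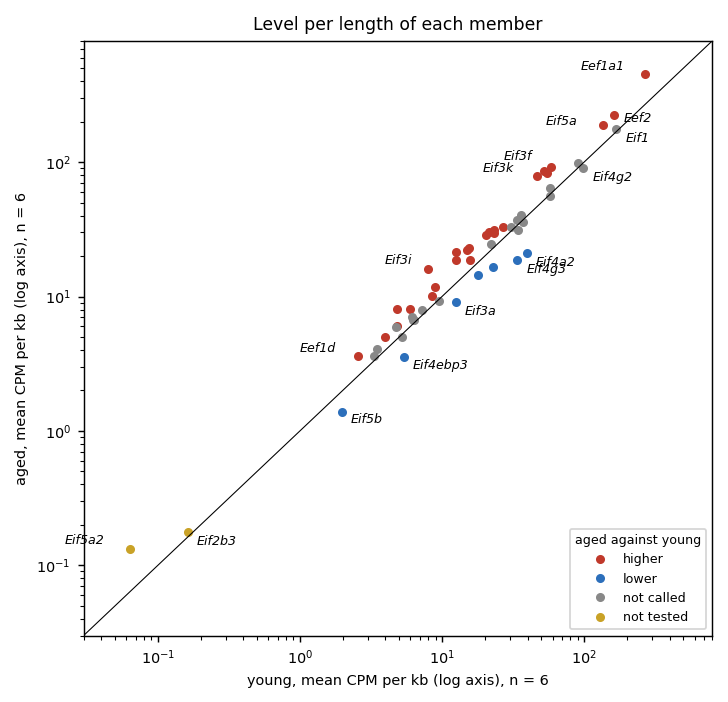
Mean level per length of each member with counts in both ages, in CPM per kb (both log axes), in young (horizontal) and aged (vertical) mice, with the line of equal levels. Eef1a1 leads with 455 CPM per kb in aged and 270 CPM per kb in young mice, and Eif4a2 and Eif4g3 lie below the line.

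The TOP genes listed here, from textbook knowledge but with earlier results of these data known, are Eef1a1, Eef1b2, Eef1d, Eef1g, Eef2, Eif3e, Eif3f and Eif3h. Other members may carry a TOP start too, so the counts hold for this list only, and its genes are also described above. All 8 listed genes were higher in aged M-MDSCs, against 22.4% of all genes tested, with a median log2 fold change of 0.61. In 7 of the 8 (the exception being Eef1g) the ages did not overlap and the call was kept under the length offset. The summed level of the 8 genes was 1697, 1887 and 1988 CPM in aged and 947, 1291 and 1379 CPM in young mice. The lowest aged sum exceeded the highest young sum.

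Paralogs that share a role were compared within each mouse as a ratio of their levels per length, over 10 pairs chosen by family after single values had been seen. The Eif4a1 to Eif4a2 ratio was 1.30, 1.59 and 1.85 in aged mice and 0.568, 0.685 and 0.833 in young mice. Every aged mouse stood above every young mouse. The log2 difference was 1.18, from a mean of 0.64 ± 0.18 (SD, n = 6) in aged and -0.54 ± 0.21 (SD, n = 6) in young mice (exact two-sided permutation test, p = 0.00216, the smallest this design allows, adjusted p = 0.0108 over 10 pairs). Of the Eif4a1 transcript 33.0% of the 51-base words recur in other genes, and 12.3% of the Eif4a2 transcript, and on which side of 1 a ratio lies depends on these shared words and on the lengths divided by. In CPM, not divided by length, the mean of Eif4a2 was 66.9 against 61.9 for Eif4a1 in aged mice. The Eif4ebp1 to Eif4ebp2 ratio was 0.741, 0.821 and 0.961 in aged and 0.502, 0.579 and 0.730 in young mice, a log2 difference of 0.47 (exact permutation p = 0.00216, adjusted p = 0.0108). Its ages did not overlap either, though the length offset reduced this difference to 0.27. In the other 8 pairs the ages overlapped and the exact permutation test gave adjusted p-values of at least 0.0722.

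**Figure D5:**
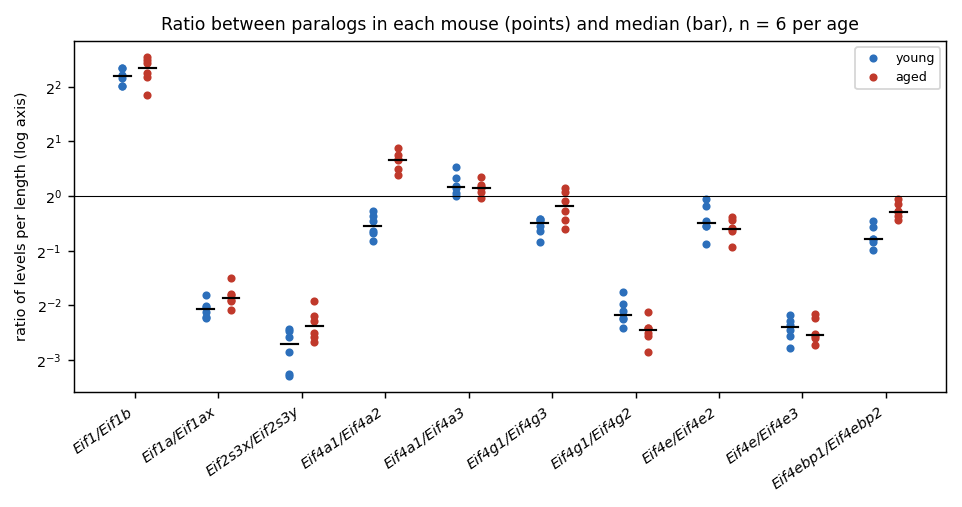
Ratio of the levels per length of 2 paralogs (vertical log axis) in each young (blue) and aged (red) mouse, with the median of 6 mice as a bar, for 10 pairs. Only for Eif4a1/Eif4a2 (median 0.685 in young, 1.59 in aged) and Eif4ebp1/Eif4ebp2 (0.579 and 0.821) do the ages not overlap.

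Promoter windows from 250 bases before to 50 bases after the start were available from RefSeq (GRCm38.p6) for 44 of the 58 members, and 11 short motifs were searched in them on both strands. The E-box CACGTG, which reads the same on both strands and is bound by MYC and related factors, was found in 12 of 44 members (27.3%) and in 8.09% of all 27025 genes with a window. Of the 12 members, 5 were higher, 2 were lower, 4 were not called and 1 was not tested, while the 44 comprised 17 higher, 6 lower, 18 not called and 3 not tested. The ETS-type motif CCGGAAG (or its reverse complement), which cannot overlap the E-box, was found in 16 of 44 members (36.4%) and in 9.93% of all genes. GGAAGTG, which shares letters with that motif, was found in 29.5% of members against 12.4% of all genes, TGACGT in 20.5% against 8.37%, CTTTTC in 27.3% against 24.3%, CTTTCC in 27.3% against 29.3%, TATAAA in 11.4% against 15.7% and CCAAT in 29.5% against 41.1%. The other motifs, TGACGTCA (which contains TGACGT), TTGCATCA and the palindromic NRF1 motif, were each found in at most 1 member. A match is a run of letters and not a binding site. The 27025 genes were not limited to genes tested in these cells, so the shares compare unlike sets. Whether any share is particular to the members was not tested. To show the E-box in members that moved in opposite directions, windows of 30 bases on the strand of the gene follow for 1 site in each of the 7 called members that hold it, with the motif in capitals, for Eef2 (chr10:81176576-81176605), Eif3f (chr7:108934335-108934364), Eif3k (chr7:28981915-28981944), Eif4a1 (chr11:69672595-69672624) and Eif5a (chr11:69921443-69921472), which were higher, and Eif3a (chr19:60790654-60790683) and Eif4g1 (chr16:20672661-20672690), which were lower.
Eef2: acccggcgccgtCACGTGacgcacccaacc
Eif3f: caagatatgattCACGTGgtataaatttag
Eif3k: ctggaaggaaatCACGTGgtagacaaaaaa
Eif4a1: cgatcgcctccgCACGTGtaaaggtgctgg
Eif5a: aaggggcggggtCACGTGtgtgcgtcatcc
Eif3a: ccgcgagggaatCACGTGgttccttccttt
Eif4g1: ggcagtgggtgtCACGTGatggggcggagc
The E-box began 43 bases before the start in Eef2, 68 in Eif3f, 44 in Eif3k, 189 in Eif4a1, 74 in Eif5a and 54 in Eif4g1, and 23 bases after it in Eif3a. Eif5a and Eif4g1 each hold 1 more site that is not shown.

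Genes that act on or beside the factors, but do not carry their names, were counted in 6 lists. Together 51 were tested, of which 7 were higher and 14 were lower in aged M-MDSCs (13.7% and 27.5%, where 22.4% and 23.0% of all genes were). With the length offset 10 were higher and 7 were lower (19.6% and 13.7%), near the 19.3% and 16% of all genes. The counts of single lists that follow are a description. Of 7 genes of the eIF2 kinases and the stress response they trigger, 4 were lower (57.1%) and none was higher, and with the length offset 3 were lower (Eif2ak3 was lost) and Ppp1r15b was higher (0.33, edgeR adjusted p = 0.0038). Atf4, the transcription factor translated when eIF2 is phosphorylated, fell by 0.59 on the log2 scale (SE 0.09, edgeR adjusted p = 0.000133), from 129 to 179 CPM in young to 85.1 to 112 CPM in aged mice. The RNA-activated kinase Eif2ak2 fell by 0.72 (SE 0.14, adjusted p = 0.000828), also without overlap, and Ppp1r15a, the phosphatase subunit that reverses eIF2 phosphorylation, had a log2 fold change of -1.28 (SE 0.33, adjusted p = 0.00549) with overlap.

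Of 13 mTORC1 and cap-control genes 5 were lower and 1, Rheb, was higher, 38.5% and 7.69% where 23.0% and 22.4% of all genes were. With the length offset 1 was lower and 2 were higher, Mlst8 (0.18, edgeR adjusted p = 0.0414) and Tsc2 (0.16, adjusted p = 0.0266). The difference for Rheb (log2 fold change 0.28 ± 0.08, edgeR adjusted p = 0.0102) was not called under the offset (0.09, adjusted p = 0.353). Rps6kb1, the S6 kinase gene, had the largest fall of that list. It measured 20.9, 24.8 and 29.1 CPM in aged and 37.6, 42.5 and 52.4 CPM in young mice. The ages were separate, with a log2 fold change of -0.83 ± 0.11 (adjusted p = 5.84e-05), or -0.42 (adjusted p = 0.00197) with the length offset. Mtor (-0.38), Rptor (-0.40), Tsc1 (-0.66) and Larp1 (-0.45) were the others that fell, and none of these calls held under the offset. Of 9 poly(A)-binding proteins and helicases 2 rose (22.2%, against 22.4% of all genes), Paip2 (0.44 ± 0.12) and Pabpc1 (0.25 ± 0.08), and 3 fell (33.3%, against 23.0%), led by Gigyf2 (-0.76 ± 0.08, adjusted p = 1.79e-05), a partner of Eif4e2 in repression. Under the offset Paip2 (0.23, adjusted p = 0.0814) and the helicase genes Ddx3x (-0.01) and Dhx29 (-0.13) lost their calls, and 3 genes of this list were higher and 1 was lower. Of 4 tested enzymes of the modifications on eIF5A and eEF2, 2 were higher (50%, against 22.4% of all genes). Dhps, which makes the first step to hypusine, rose by 0.48 ± 0.12 (adjusted p = 0.00497), or 0.24 with the offset (adjusted p = 0.0866, not called). Dph3, of diphthamide synthesis, rose by 0.66 ± 0.16 (adjusted p = 0.00359). Dohh (0.24 ± 0.14, adjusted p = 0.158) and Dph2 (-0.02 ± 0.26, adjusted p = 0.953) were not called. Termination and recycling genes had 2 higher of 7 tested, Mcts1 (0.29 ± 0.10) and Etf1 (0.16 ± 0.06), and none lower (28.6% higher, near the share of all genes), and the offset turned Mcts1 to -0.12 (adjusted p = 0.378). Among 11 mitochondrial translation factors none was higher and 2 were lower (18.2%, against 23.0% of all genes), Gfm2 (-0.50 ± 0.11, adjusted p = 0.00252) and Mtrf1l (-0.57 ± 0.21, adjusted p = 0.0356), while with the offset Mtif3 was higher (0.34, adjusted p = 0.0224).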

How the data were processed

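RNA from 6 aged and 6 young mice was analysed, with each library assigned to its age by its label. The authors deposited whole-number fragment counts per gene, made with featureCounts 2.0.0 over the exons of an mm10 annotation, in pairs and on the gene's strand, for fragments of mapping quality 60 or above. The aligner used is not given in the sources used here. The deposited counts were not normalized, and no column was left out. Libraries of one age differed by more than sampling noise (smallest chi-square per gene 1.68). The young mice were not equally alike, with 1.68 for mice 1 and 2, 2.64 for 9 and 10 and 4.18 for 5 and 6. Between mice 5 or 6 and the other young mice it was 22.0 to 38.1. Every test here treats the 6 young mice as independent, which was not tested. Ly6g was not analysed here.

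Counts were fitted over the whole table with edgeR 4.0.16 in R 4.3.3 (filterByExpr, TMM, quasi-likelihood test), with Benjamini-Hochberg adjustment over 9742 genes and a threshold of 0.05. CPM are counts scaled to the TMM-adjusted total, and CPM per kb divide them by the authors' length over exons. Each standard error was the fold change on the log2 scale over the root of the test's F, and the biological coefficient of variation was 15.7%. At these depths counting error limits only members of few counts. Exon bases shared by 2 rows of the table on 1 strand were counted from the deposited coordinates. The length offset was a lowess curve of each library's deviations over log length (span 0.3). The test was checked on simulated data. The alignment file numbers of all young mice precede those of all aged mice, so age and that order cannot be told apart.

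Members are grouped by role from their names, and the largest rise, the largest fall, the smallest p-value and the highest level per length of each class, members not called or against their class and untested members were named by rule, and others were given to account for every member. The members and lists were chosen with earlier results of these data known. Alternatives were DESeq2 1.42.0, limma-voom (limma 3.58.1), other scalings and filters, offsets for length and GC content, each mouse left out and a fit on 8 mice with shared label numbers. Words of 51 bases shared between genes were counted in GENCODE M21 transcripts.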

Additional observations from a re-analysis of the deposited data

Results flagged for a closer look

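In 78 groups of 6 mice, 1 for each named member and age, the highest or lowest value was compared with its nearest neighbour by Dixon's ratio, and 2 groups held a value set apart from the rest, where chance gives about 1 in 20 groups. Eif1 measured 164 CPM in aged mouse 7, against 209 CPM in the next lowest aged mouse. Eif4g2 measured 749 CPM in aged mouse 7, against 699.9 CPM in the next highest aged mouse. Both values come from the aged library with the highest total, 16300374 counts. Without that mouse Eif4g2 was called lower, with a log2 fold change of -0.15 (edgeR adjusted p = 0.0455).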

How the results depend on the processing

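With each mouse left out in turn, 23 to 26 members were called higher and 7 or 8 lower, and under the other alternatives 19 to 28 and 5 to 8. The median log2 fold change of the members was 0.19 to 0.26 and 0.14 to 0.27. All 8 or 7 of the 8 listed TOP genes were higher in each case. Partner genes called lower numbered 7 under the length offset, against 14, and 9 with the replicate block on 8 mice, against 12 in the same mice without it, and partner genes called higher numbered 4, against 7, without young mice 5 and 6. Reversed signs were found for members and ratios that had not been called. These were Eif1 without TMM factors (-0.022) and without the 2 shallowest young libraries (-0.0021), Eif3b with upper quartile scaling (0.015), Eif5 with the GC offset (0.0086), and, with the length offset, Eef2k (0.28), Eif1 (-0.22), Eif4ebp2 (-0.0049), Eif4g2 (0.27), Eif5 (0.062) and the Eif4a1/Eif4a3 ratio (0.028). Without aged mice 1 and 2 they were Eef2k (0.00028), Eif2b1 (-0.030), Eif2b5 (-0.030) and Eif5 (0.0019), and without young mice 5 and 6 Eif2s3y (0.058) and Eif5 (0.0070). Leaving out 1 mouse gave -0.098 to 0.037 for Eif3b, -0.087 to 0.0033 for Eef2k, -0.13 to 0.00021 for Eif1b, and log2 differences of -0.10 to 0.020 for the Eif4e/Eif4e3 and -0.096 to 0.010 for the Eif4a1/Eif4a3 ratio. The cause of these shifts was not tested.

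The label numbers 1, 2, 5 and 6 occur in both ages. Same-numbered mice did not deviate together (correlations -0.09, -0.04, -0.23 and -0.24, none the best for its number). The numbers were taken as names, though 4 pairs across the ages cannot show that they mark no shared day or cage. Within the young, chi-square per gene was 1.68 to 4.18 for mice 1 and 2, 5 and 6, and 9 and 10. For aged mice it was 5.22 for 1 and 2 and 5.63 for 5 and 6, but 11.4 for 4 and 5 and 33.5 for 6 and 7. In a fit of these 8 mice with the number as a replicate block, 26 of the 32 member calls remained, against 31 in the same mice without it. Eif1b turned to 0.088 with the block and 0.079 without it, and Eif3b to 0.0075 without it. The planned GC offset from genomic exons was not run. GC content came from GENCODE M21 transcripts in its place (94.4% of tested genes), and this fit and those without 2 libraries were chosen after seeing the data. The 2 shallowest young libraries (4613239 and 5068845 counts) leave members of few counts the least precise.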
